A study of Rattus norvegicus with 9 samples.

Results

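Deubiquitinating enzymes are the proteases that take ubiquitin off proteins. A list of 50 of their genes was followed in rat skeletal muscle through prolonged fasting, and a member was measured where the array has a probe set annotated with its symbol alone. That held for 43 of the 50 listed genes, out of 14503 genes with such a probe set and 29215 probe sets in all. Of several probe sets of a gene, the brightest on average was used. The study profiled tibialis anterior (TIB), a fast muscle of the lower leg, from male Sprague Dawley rats with Affymetrix Rat Gene 1.0 ST arrays, each hybridized with RNA of 1 rat. The groups were 3 fed rats (Fed), 3 rats fasted into phase 2 (P2) and 3 rats fasted into phase 3 (P3). Phase 2 is the long stage of fasting in which fat is the main fuel and body protein is spared, and phase 3 is the late stage in which the loss of body protein increases. All rats were of the same sex, strain and muscle, and differed by label only in nutritional state. The rats are named below by group and number.

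Ubiquitin is joined to proteins by ligases, singly or in chains, and the kind of chain decides whether a protein goes to the proteasome, into the endosome or into a signaling complex. Deubiquitinating enzymes reverse that step, rescue substrates, edit chains and return free ubiquitin to the cell. In wasting muscle the ligases of the ubiquitin-proteasome system are well known, whereas few of the enzymes that oppose them have been studied there. The families covered here are the ubiquitin-specific proteases (USP), the ubiquitin C-terminal hydrolases (UCH), the ovarian tumor proteases (OTU), the Josephin enzyme Atxn3 and the JAMM metalloprotease Stambp.

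Values are log2 intensities of a probe set, so a difference of 1 is a doubling, and levels of different genes are not compared with each other. Changes are log2 fold changes ± standard error from limma, fitted to all 9 arrays. A call is a Benjamini-Hochberg adjusted p under 0.05 over all 29215 probe sets, for 3 rats per group throughout. Nothing in the labels says more of the replicates than that they are separate rats, and the p-values measure the spread between these rats. Array medians lay between 5.8 and 5.9, and Pearson's r across probe sets was 0.987 to 0.994 within groups and 0.957 to 0.987 between them. The myofiber markers were bright in every rat, for example Ckm, the muscle creatine kinase, with group means of 13.57 (Fed), 13.56 (P2) and 13.46 (P3). Called below Fed in P3 were Mb (-0.81) and Myh7 (-0.94, and -0.88 in P2), 2 of the 10 markers listed. Of 6 endothelial markers Pecam1 was higher (0.91) and Eng lower (-0.73) in P3 than in Fed. Of 6 fibro-adipogenic markers 4 were lower in P3 than in Fed (Col1a1, Col1a2, Col3a1 and Lum), as were 3 of 4 smooth muscle markers, against 1 of 10 macrophage markers higher (Cd163) and 0 of 5 lymphocyte markers changed. In whole muscle, fewer cells of a type and less RNA per cell cannot be told apart, and the part of these cell types in the results below was not tested.

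The main change came in P3. There 21 of 43 enzymes were higher than in Fed and 2 were lower, so that 53.5% were called, with a median log2 fold change of 0.35. The rises were up to 2.12 for Usp3, a histone deubiquitinase, and 2.09 for Usp53, and the decreases were -0.63 for Usp15, which acts on TGFβ receptor signaling, and -1.0 for Usp18, which removes the ubiquitin-like protein Isg15. The Usp18 value comes from a dim probe set, with a mean log2 intensity of 3.92, and its size is uncertain. Over all probe sets 29.2% were called in P3 versus Fed, 15.8% higher and 13.4% lower, with a median of 0.00. Calls were commoner among bright genes, and 39 of the 43 enzymes have a mean log2 intensity of at least 7. Of the 6136 genes at that level 60.1% were called, 34.1% higher and 26.0% lower. Against these genes the share of enzymes called is not larger, whereas the enzymes called were nearly all higher, at 48.8% higher and 4.65% lower. In 28 enzymes every P3 rat lay above every Fed rat, and in 3 every P3 rat lay below. Such separation occurred in 22.3% and 20.1% of all probe sets.

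P2 held fewer calls. In P2 8 enzymes were higher than in Fed and 0 were lower, 18.6% of the 43, with a median of 0.14. Over all probe sets 9.28% were called in P2 versus Fed, 5.13% higher and 4.15% lower, and of the genes at a mean of at least 7 it was 23.5%, 14.3% higher and 9.26% lower. The 8 enzymes were Usp2, Usp3, Usp42, Otud5, Otud7b, Cyld, Usp14 and Usp25, with log2 fold changes from 0.31 to 0.70. In 13 enzymes every P2 rat was above and in 4 below every Fed rat, against 13.3% and 10.9% of all probe sets. Most of these calls lay close to the threshold. Otud5, Usp2 and Usp3 were called whichever array was left out, but Usp14 and Cyld each lost the call without any of 8 of the 9 arrays, Usp25 without any of 6, Usp42 without any of 5 and Otud7b without P2 3.

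More enzymes were called between the phases. In P3 18 enzymes were higher than in P2 and 1, Usp2, was lower, 44.2% of the 43, with a median of 0.23. Over all probe sets 16.0% were called in P3 versus P2, 8.50% higher and 7.52% lower, and of the genes at a mean of at least 7 it was 41.8%, 22.7% higher and 19.1% lower. In 21 enzymes every P3 rat was above and in 3 below every P2 rat, against 13.8% and 13.6% of all probe sets. Most of the enzymes that were higher in P3 than in Fed were not called in P2: 13 were higher in P3 than in both other groups with no call in P2 versus Fed, and only Usp3, Usp42, Usp14 and Otud5 were called upward in all 3 comparisons. Since the P2 and P3 changes share the Fed rats, the side-by-side values are no independent check of each other. P2 1 was the lowest of the P2 rats in 29 of the 43 enzymes, against 44.9% of the genes at a mean of at least 7. P3 1 was the lowest of the P3 rats in 24 of the 43, against 43.6% of those genes. Without P2 1 the number higher in P2 than in Fed was 12, with Atxn3, Usp1, Usp45, Usp53 and Usp54 called as well and Usp14 lost.

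**Figure D1:**
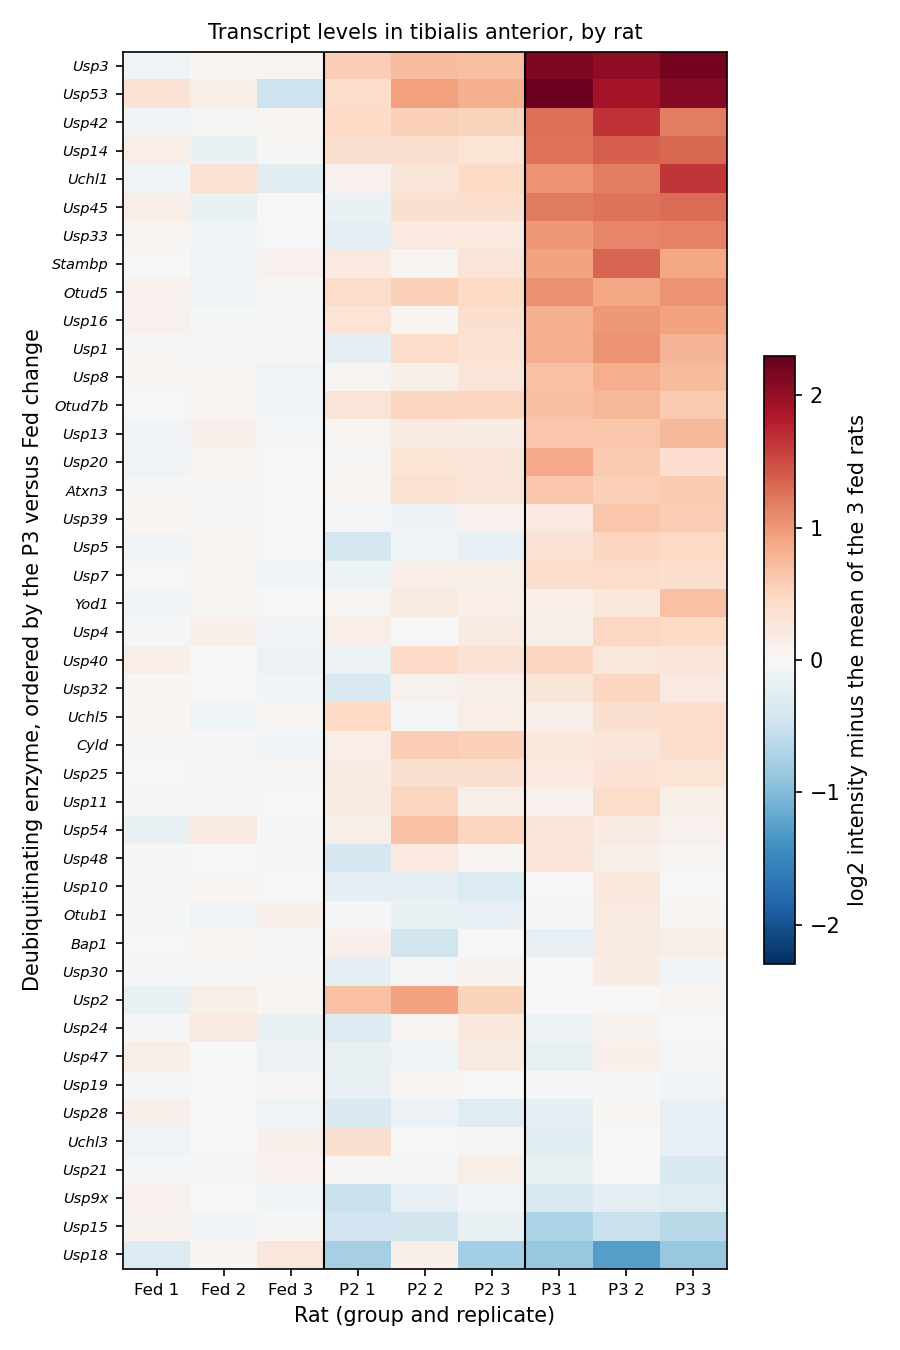
Log2 intensity of each of the 43 measured deubiquitinating enzymes in each rat, minus the mean of the 3 fed rats, with enzymes down the page by their P3 versus Fed change and rats across in the order Fed, P2, P3. The P3 columns are red from Usp3 (2.12) downward through most of the enzymes, Usp2 is red in the P2 columns alone, and Usp15 and Usp18 are blue in P3.

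To show what sequence the strongest changes sit beside, 4 promoters are printed. Usp3, Usp53 and Usp14 had the largest changes in P3 versus Fed among the enzymes with a RefSeq promoter, and Usp2 was the enzyme higher in P2 and back in the range of the fed rats in P3. The sequences are from RefSeq, assembly GRCr8, and run from 250 bases before to 50 bases after the start that its promoter table uses, 5′ to 3′ on the strand of the gene. For Usp53, Usp14 and Usp2 that start lies inside the annotated span of the gene and not at its outer end, so other starts of these genes are outside the windows. Capitals mark a match to the antioxidant response element searched as TGACNNNGC on both strands, the element bound by Nrf2.
Usp3, chr8:76049102-76049401, minus strand: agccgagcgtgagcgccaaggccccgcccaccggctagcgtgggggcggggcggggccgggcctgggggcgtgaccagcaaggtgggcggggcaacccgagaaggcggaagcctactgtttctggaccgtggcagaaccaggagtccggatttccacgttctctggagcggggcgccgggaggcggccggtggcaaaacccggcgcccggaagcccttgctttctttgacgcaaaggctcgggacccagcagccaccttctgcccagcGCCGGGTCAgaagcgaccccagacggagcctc
Usp53, chr2:213805259-213805558, minus strand: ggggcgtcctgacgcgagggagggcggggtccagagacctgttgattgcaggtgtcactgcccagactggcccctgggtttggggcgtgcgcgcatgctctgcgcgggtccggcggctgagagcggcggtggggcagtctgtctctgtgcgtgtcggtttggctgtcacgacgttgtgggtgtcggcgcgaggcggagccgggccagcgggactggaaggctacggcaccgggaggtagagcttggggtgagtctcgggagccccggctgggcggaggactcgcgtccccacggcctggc
Usp14, chr18:1330287-1330586, minus strand: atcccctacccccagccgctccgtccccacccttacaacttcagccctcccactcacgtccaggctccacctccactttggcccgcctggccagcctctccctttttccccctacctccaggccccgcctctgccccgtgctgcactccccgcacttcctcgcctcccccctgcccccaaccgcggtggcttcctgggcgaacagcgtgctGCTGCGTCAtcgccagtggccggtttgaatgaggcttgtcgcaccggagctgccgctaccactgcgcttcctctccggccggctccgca
Usp2, chr8:53310620-53310919, plus strand: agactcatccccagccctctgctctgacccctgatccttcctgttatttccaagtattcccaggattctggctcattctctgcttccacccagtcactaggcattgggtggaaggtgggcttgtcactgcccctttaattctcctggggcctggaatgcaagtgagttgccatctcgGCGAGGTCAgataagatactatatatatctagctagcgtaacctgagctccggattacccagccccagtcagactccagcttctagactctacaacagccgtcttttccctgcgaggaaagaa
The match lies at positions 19 to 27 in Usp3, -39 to -31 in Usp14 and -73 to -65 in Usp2, counted from the first base of that start as 1, and is on the strand opposite to the gene in all 3. The window of Usp53 held none of the motifs searched, nor did that of Otud5, which was called upward in both phases. The motif was in 8 of the 36 enzyme promoters that RefSeq gave here (22.2%), against 12.1% of all 33469 promoters. The 36 include 18 enzymes that were higher in P3 than in Fed, of which 4 held the motif, Usp3, Usp14, Usp13 and Usp20. It was also in Usp2, Uchl5, Usp32 and Bap1, which were not called there. The promoters of the enzymes were richer in G and C, with a median of 62.5%, against 51.7% in all promoters, and in CpG dinucleotides, with a median of 22, against 7. A match of these letters is a description and not a binding site.

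Motifs of factors known from fasting were each found in 0 to 3 of the 36 windows. Their shares were not tested against those of all promoters. The FOXO core TGTTTAC was found in 2 of 36 enzymes (5.56%), Yod1 and Usp47, neither of which was called, against 3.78% of all promoters. The glucocorticoid response element, GNACA and TGTNC with NNN between them, was found in 0 of 36, against 0.439%, and the heat shock element, GAA, TTC and GAA with NN between each, in 0 of 36, against 0.798%. The E-box CACGTG, bound by clock factors among others, was found in Atxn3, Usp32 and Usp4 (8.33%, against 6.42% of all promoters). The D-box TTANGTAA and the interferon-stimulated response element, GAAA and GAAA with NN between them, were each found in 1 promoter, that of Stambp in both cases. That is 2.78%, against 2.24% and 3.92% of all promoters. All were searched on both strands, and no match says only that the letters are not in the window.

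Among the enzymes that work at the proteasome or recycle ubiquitin, 3 of 5 were higher in P3 than in Fed. It was 34.1% of the genes at a mean of at least 7, and with 5 members the difference was not tested. Usp14, which sits on the proteasome and trims chains from its substrates, had log2 intensities of 9.27, 8.95 and 9.13 in Fed, 9.48, 9.48 and 9.43 in P2 and 10.36, 10.48 and 10.43 in P3. Every P3 rat was above every P2 rat and every P2 rat above every Fed rat. The log2 fold change was 1.31 ± 0.09 in P3 versus Fed (adjusted p = 7.48e-06), 0.35 ± 0.09 in P2 versus Fed (adjusted p = 0.0402) and 0.96 ± 0.09 in P3 versus P2. Without Fed 2, the lowest of the fed rats, the change in P2 versus Fed was 0.27, and over all arrays left out in turn it ranged from 0.27 to 0.43 with adjusted p between 0.0259 and 0.111.

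Uchl5, the other proteasome-bound enzyme, had 9.59, 9.45 and 9.60 in Fed, 10.01, 9.53 and 9.71 in P2 and 9.67, 9.92 and 9.96 in P3. P2 1 was the highest of all 9 rats, and the change of 0.31 ± 0.13 in P3 versus Fed did not pass (adjusted p = 0.113, 95% interval 0.01 to 0.60). The proteasome receptors and scaffolds that the pair bind were higher in P3. The log2 fold change in P3 versus Fed was 1.14 ± 0.12 for Adrm1, the dock of Uchl5, 1.09 ± 0.11 for Psmd2 and 1.04 ± 0.08 for Psmd1. Psmd14, the metalloprotease of the proteasome lid that cuts whole chains off substrates, had 1.08 ± 0.10 in P3 versus Fed (adjusted p = 6.32e-05) and 0.27 ± 0.10 in P2 versus Fed (adjusted p = 0.167).

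Uchl1, a hydrolase that frees ubiquitin from small adducts and is best known from neurons, had 5.29, 5.73 and 5.12 in Fed, 5.47, 5.65 and 5.83 in P2 and 6.42, 6.56 and 7.03 in P3. All P3 rats were above all other rats, while Fed and P2 overlapped. The change was 1.30 ± 0.20 in P3 versus Fed (adjusted p = 0.000915). Of 6 measured nerve and Schwann cell markers 0 were called in any comparison, and their summed level on the log2 scale lay between 7.65 and 7.76 in P3 and between 7.83 and 7.99 in Fed.

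Usp5, which takes apart free ubiquitin chains, had 8.65, 8.77 and 8.73 in Fed, 8.31, 8.64 and 8.53 in P2 and 9.06, 9.21 and 9.17 in P3. Every P2 rat was below every Fed rat and every P3 rat above. The change was 0.43 ± 0.09 in P3 versus Fed (adjusted p = 0.00733) and 0.65 ± 0.09 in P3 versus P2 (adjusted p = 0.00146), and the P2 versus Fed value of -0.22 ± 0.09 did not pass (adjusted p = 0.205). Uchl3, a relative of Uchl1, had -0.15 ± 0.12 in P3 versus Fed (95% interval -0.41 to 0.12), and a second probe set of it had -0.13.

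**Figure D2:**
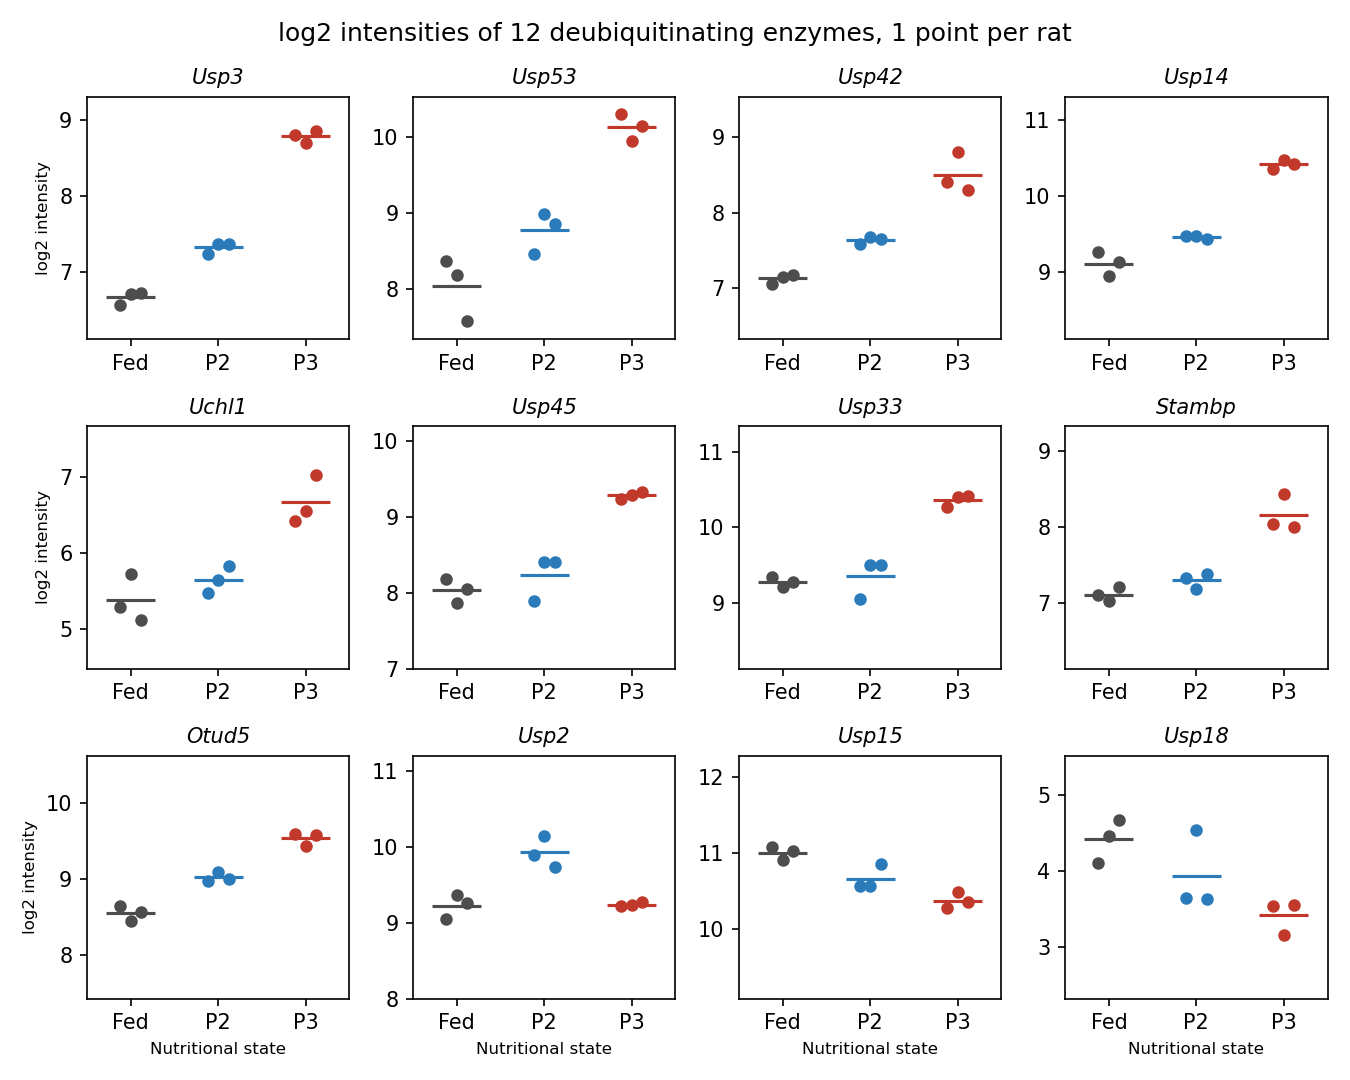
Log2 intensities of 12 deubiquitinating enzymes in TIB, 1 point per rat, in Fed, P2 and P3, with a line at each group's mean. Each panel has its own vertical range. For Usp3 and Otud5 the groups separate at each step, for Usp33 and Usp45 the P3 rats alone stand apart, and Usp2 is highest in P2.

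Of the 5 enzymes of endosomes and receptor traffic, 4 were higher in P3 than in Fed and 0 were called in P2. Among all genes at a mean of at least 7, 34.1% were higher in P3 than in Fed, and with 5 members the difference was not tested. Usp33, which with its relative Usp20 deubiquitinates β-adrenergic receptors and aids their recycling, had 9.34, 9.21 and 9.28 in Fed, 9.05, 9.51 and 9.51 in P2 and 10.27, 10.40 and 10.42 in P3. The P3 rats lay far above the rest, and P2 1 was the lowest of all rats. The change was 1.09 ± 0.12 in P3 versus Fed (adjusted p = 0.000173), against 0.08 ± 0.12 in P2 versus Fed. Usp20 had 6.68, 6.83 and 6.76 in Fed, 6.79, 7.07 and 7.03 in P2 and 7.63, 7.36 and 7.15 in P3. Its P3 rats were spread out but all above the other rats, with 0.62 ± 0.13 in P3 versus Fed (adjusted p = 0.00507).

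Stambp and Usp8 both bind the Stam proteins on endosomes, where they remove ubiquitin from receptors before these are sorted to lysosomes. Stambp had 7.10, 7.02 and 7.21 in Fed, 7.33, 7.18 and 7.38 in P2 and 8.04, 8.44 and 8.0 in P3. Fed and P2 overlapped, and the P3 rats were above both, by 1.05 ± 0.12 over Fed (adjusted p = 0.000184). Usp8 had 8.38, 8.37 and 8.25 in Fed, 8.39, 8.46 and 8.62 in P2 and 9.00, 9.16 and 9.06 in P3. It was 0.74 ± 0.08 higher in P3 than in Fed (adjusted p = 0.000152), again with no overlap.

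Of their endosomal partners, Hgs and Stam were called in both phases. Hgs, which carries the Stam proteins to the endosome, was 0.89 ± 0.15 higher in P2 than in Fed (adjusted p = 0.00639) and 2.19 ± 0.15 higher in P3 than in Fed (adjusted p = 6.84e-06). Stam had 0.49 ± 0.08 in P2 and 0.87 ± 0.08 in P3, both called, and Stam2 had 0.52 ± 0.15 in P3 versus Fed (adjusted p = 0.0248). Usp32, a membrane-anchored USP, had 0.32 ± 0.13 in P3 versus Fed and did not pass (adjusted p = 0.107).

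Of the enzymes of protein quality control at the endoplasmic reticulum, 2 of 4 were higher in P3 than in Fed. This share was not tested against the 34.1% of the genes at a mean of at least 7. Atxn3, which edits chains on substrates of the segregase Vcp, had 7.51, 7.47 and 7.48 in Fed, 7.56, 7.84 and 7.79 in P2 and 8.12, 8.03 and 8.09 in P3. The groups did not overlap at either step, and the change was 0.59 ± 0.08 in P3 versus Fed (adjusted p = 0.000588) and 0.24 ± 0.08 in P2 versus Fed (adjusted p = 0.122). Yod1, an OTU enzyme that also works with Vcp, had 6.84, 6.94 and 6.90 in Fed, 6.97, 7.11 and 7.05 in P2 and 7.05, 7.16 and 7.57 in P3. P3 3 was high and the other P3 rats lay among or near the P2 rats, and 0.36 ± 0.12 in P3 versus Fed just missed the threshold (adjusted p = 0.0579, 95% interval 0.08 to 0.64).

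Usp25, which deubiquitinates substrates of this pathway, was higher by about the same amount in both phases, 0.31 ± 0.07 in P2 versus Fed (adjusted p = 0.0297) and 0.29 ± 0.07 in P3 over the same rats (adjusted p = 0.0136), and the 95% interval of P3 versus P2 was -0.18 to 0.15. Usp19, which is anchored in the endoplasmic reticulum and has been tied to muscle wasting in rodents, had -0.05 ± 0.07 in each phase versus Fed. Its 95% interval was -0.21 to 0.11 in P3 and -0.21 to 0.12 in P2. Vcp itself was higher in P3 than in Fed by 0.64 ± 0.10, and its adaptors Nploc4 and Nsfl1c by 1.62 ± 0.06 and 1.46 ± 0.07. Both adaptors were also called in P2 versus Fed, with 0.60 ± 0.06 and 0.39 ± 0.07.

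In the group tied to mitophagy and autophagy, 1 of 3 was called in P3 versus Fed. Genes at a mean of at least 7 were called in 60.1%. Usp13, which with Usp10 stabilizes the autophagy protein Beclin-1, had 11.27, 11.45 and 11.31 in Fed, 11.40, 11.52 and 11.51 in P2 and 11.97, 11.97 and 12.08 in P3. Fed and P2 overlapped and P3 was above both, with 0.66 ± 0.08 in P3 versus Fed (adjusted p = 0.000163). A second probe set of Usp13 had 0.54 ± 0.10 (adjusted p = 0.00243). Usp10, which is also bound by the stress granule proteins G3bp1 and G3bp2, had 8.59, 8.66 and 8.61 in Fed, 8.39, 8.42 and 8.30 in P2 and 8.61, 8.87 and 8.63 in P3. Its P2 rats were the lowest, below all Fed and P3 rats, and P3 was 0.33 ± 0.08 above P2 (adjusted p = 0.0239).

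The P2 versus Fed value of Usp10 was -0.25 ± 0.08 and did not pass (adjusted p = 0.106), and the P3 versus Fed value was 0.08 ± 0.08. Without P2 3 or P3 2 the P3 versus P2 change of Usp10 was 0.30 or 0.25 and lost its call, in a range of adjusted p of 0.0297 to 0.0839 over all arrays left out. G3bp2 was the only partner protein that was lower in P3 than in Fed, at -0.38 ± 0.12 (adjusted p = 0.0449), and G3bp1 was not analysed here. Usp30, which sits on the outer mitochondrial membrane and opposes mitophagy, had 0.03 ± 0.09 in P3 versus Fed (95% interval -0.18 to 0.25).

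**Figure D3:**
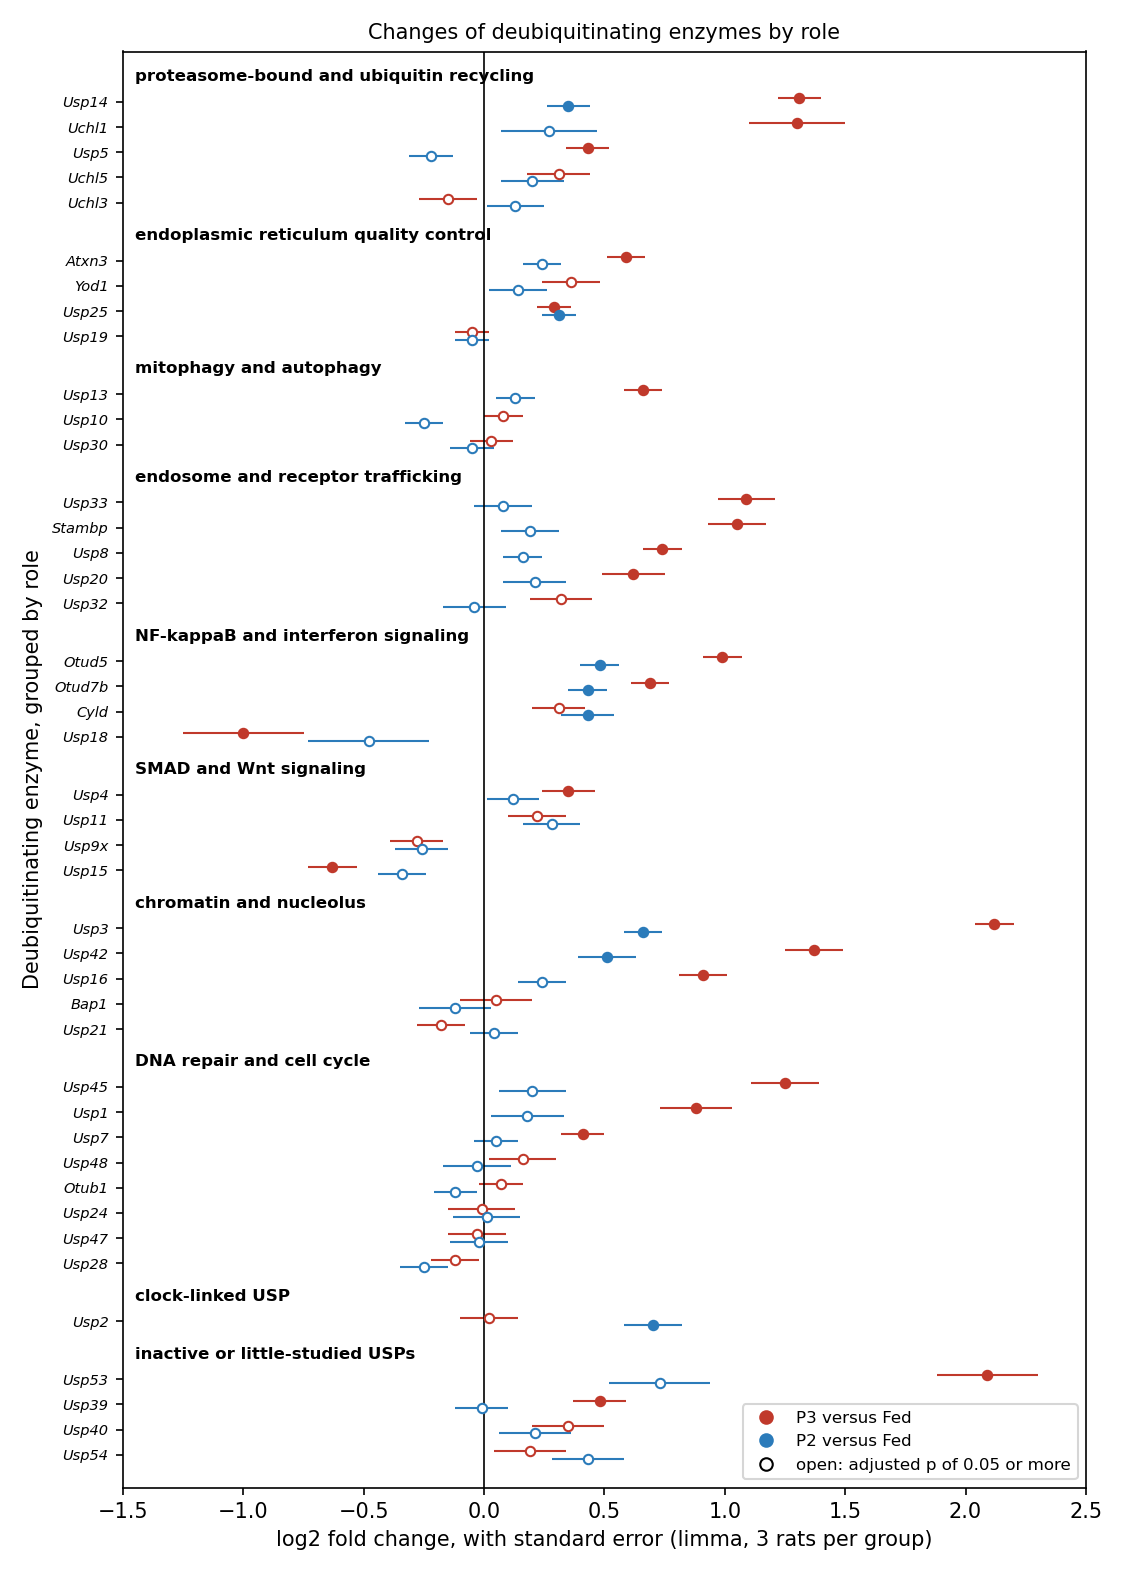
Log2 fold changes of the 43 measured deubiquitinating enzymes in P3 versus Fed (red) and P2 versus Fed (blue), grouped by role, with bars for the standard error from limma (3 rats per group). Filled points are called. Red points lie to the right of blue points for most enzymes, with Usp3 (2.12) and Usp53 (2.09) farthest right, and Usp18 (-1.0) farthest left.

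Chromatin enzymes held the largest change of all members. Of the 5 measured, 3 were higher in P3 than in Fed and 2 in P2. Among genes at a mean of at least 7 it was 34.1% and 14.3%, and the differences were not tested. Usp3, which deubiquitinates histones H2A and H2B, had 6.56, 6.71 and 6.72 in Fed, 7.23, 7.37 and 7.36 in P2 and 8.80, 8.70 and 8.86 in P3. Each group lay clear of the one before it, with a spread within groups of at most 0.09 (SD). The change was 2.12 ± 0.08 in P3 versus Fed (adjusted p = 3.82e-07), 0.66 ± 0.08 in P2 versus Fed (adjusted p = 0.00147) and 1.47 ± 0.08 in P3 versus P2 (adjusted p = 8.49e-06).

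Usp42, which acts on p53 and on histone H2B, had 7.06, 7.15 and 7.18 in Fed, 7.58, 7.68 and 7.65 in P2 and 8.40, 8.80 and 8.30 in P3. The groups did not overlap, and P3 2 was the highest. The change was 1.37 ± 0.12 in P3 versus Fed (adjusted p = 3.42e-05) and 0.51 ± 0.12 in P2 versus Fed (adjusted p = 0.0323). Usp16, a histone H2A deubiquitinase of mitosis, had 9.30, 9.18 and 9.16 in Fed, 9.52, 9.25 and 9.57 in P2 and 10.03, 10.20 and 10.14 in P3. P2 2 lay among the Fed rats, and all P3 rats were above, by 0.91 ± 0.10 over Fed (adjusted p = 0.000117).

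The other H2A deubiquitinases were called in no comparison. Bap1, a tumor suppressor, had 9.59, 9.65 and 9.57 in Fed, 9.72, 9.14 and 9.59 in P2 and 9.42, 9.80 and 9.73 in P3. Its groups overlapped, with 0.05 ± 0.15 in P3 versus Fed (95% interval -0.30 to 0.39). Usp21 had 8.17, 8.16 and 8.29 in Fed, 8.22, 8.17 and 8.34 in P2 and 8.04, 8.21 and 7.84 in P3. The groups overlapped here too, with -0.18 ± 0.10 in P3 versus Fed (adjusted p = 0.24). Foxk1, a transcription factor that binds Bap1, was higher in both phases, with 0.80 ± 0.13 in P2 and 1.72 ± 0.13 in P3. Hcfc1, another partner of Bap1, was called in neither phase versus Fed, with 0.09 ± 0.07 in P3 (adjusted p = 0.445).

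Enzymes of DNA repair and the cell cycle were called in P3 alone, 3 of 8 higher than in Fed. That is 37.5%, near the 34.1% of the genes at a mean of at least 7. Usp45, which acts on the excision repair nuclease, had 8.19, 7.87 and 8.05 in Fed, 7.89, 8.41 and 8.41 in P2 and 9.24, 9.29 and 9.33 in P3. P2 1 lay among the Fed rats and the other P2 rats above them, while the P3 rats were close together and higher than all. The change was 1.25 ± 0.14 in P3 versus Fed (adjusted p = 0.000186). In P2 versus Fed Usp45 had 0.20 ± 0.14 and was not called (adjusted p = 0.492). Without P2 1 that value was 0.37 and was called (adjusted p = 0.0482), the lowest in a range of 0.0482 to 0.794 over the arrays left out.

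Usp1, which deubiquitinates FANCD2 and PCNA, had 7.60, 7.52 and 7.59 in Fed, 7.37, 8.0 and 7.90 in P2 and 8.40, 8.61 and 8.36 in P3. P2 1 was again the lowest rat and the P3 rats the highest, with 0.88 ± 0.15 in P3 versus Fed (adjusted p = 0.00208). Wdr48, the protein that activates Usp1, was 0.99 ± 0.10 higher in P3 and 0.43 ± 0.10 higher in P2 than in Fed. In P2 versus Fed Usp1 had 0.18 ± 0.15 (95% interval -0.16 to 0.53), and without P2 1 it had 0.38 and was called.

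Usp7, which stabilizes the p53 ligase Mdm2, had 10.56, 10.64 and 10.51 in Fed, 10.45, 10.72 and 10.71 in P2 and 10.98, 11.00 and 10.96 in P3. P3 was above both other groups by little but without overlap, with 0.41 ± 0.09 versus Fed (adjusted p = 0.00598). Usp48 had 8.07, 8.05 and 7.99 in Fed, 7.66, 8.26 and 8.09 in P2 and 8.33, 8.17 and 8.10 in P3. P2 1 was the lowest of these rats, and no comparison passed. The remaining 4 of the group, Otub1, Usp24, Usp47 and Usp28, lay between -0.12 and 0.07 in P3 versus Fed, and none passed. For Usp24 and Usp47 the 95% intervals were -0.34 to 0.32 and -0.30 to 0.24.

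Of the enzymes of NF-κB and interferon signaling, 3 of 4 were higher in P2 than in Fed, and in P3 2 were higher and 1 was lower. Genes at a mean of at least 7 were higher in 14.3% in P2, and higher in 34.1% and lower in 26.0% in P3. With 4 members the differences were not tested. Otud5, which acts on Traf3 and holds back type I interferon, had 8.64, 8.45 and 8.57 in Fed, 8.98, 9.10 and 9.00 in P2 and 9.60, 9.44 and 9.58 in P3. The groups were separate at each step, with 0.48 ± 0.08 in P2 versus Fed (adjusted p = 0.00699), 0.99 ± 0.08 in P3 versus Fed (adjusted p = 1.95e-05) and 0.51 ± 0.08 in P3 versus P2. Otud7b, which restrains the noncanonical NF-κB pathway, had 6.79, 6.84 and 6.72 in Fed, 7.08, 7.28 and 7.28 in P2 and 7.48, 7.54 and 7.38 in P3. It was higher in both phases, with 0.43 ± 0.08 in P2 and 0.69 ± 0.08 in P3.

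Cyld, which removes linear and Lys63-linked chains and brakes NF-κB, had 8.0, 7.99 and 7.91 in Fed, 8.13, 8.55 and 8.52 in P2 and 8.21, 8.25 and 8.38 in P3. P2 and P3 rats all lay above the Fed rats, and P2 1 was below the rest of its group. The P2 versus Fed change of 0.43 ± 0.11 was called (adjusted p = 0.0451) and the P3 versus Fed change of 0.31 ± 0.11 was not (adjusted p = 0.0701), with a P3 versus P2 difference of -0.12 ± 0.11 (95% interval -0.38 to 0.13). A second probe set of Cyld had 0.55 ± 0.15 in P2 versus Fed and did not pass (adjusted p = 0.0588). Leaving out arrays moved the first value between 0.36 and 0.57, with adjusted p from 0.00422 to 0.15.

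Usp18, which cleaves Isg15 from proteins, had 4.11, 4.47 and 4.68 in Fed, 3.65, 4.54 and 3.63 in P2 and 3.54, 3.16 and 3.55 in P3. All P3 rats were below all Fed rats, and P2 2 lay among the Fed rats. These are dim values, with a mean of 3.92 over the 9 arrays, about that of the lymphocyte marker Cd3e (3.93), and they are not shown to lie above background. The change was -1.0 ± 0.25 in P3 versus Fed (adjusted p = 0.0154). The call was lost without Fed 2 (-0.98), Fed 3 (-0.87) or P3 2 (-0.87), with adjusted p between 0.00197 and 0.0625 over all arrays left out.

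Of 6 measured genes of the Isg15 system 3 were lower in P3 than in Fed, 1 was higher and 2 did not pass. Over all probe sets 13.4% were lower and 15.8% higher, and the difference was not tested. Isg15 was at -0.66 ± 0.16 (adjusted p = 0.0143), Uba7, its activating enzyme, at -0.63 ± 0.08 (adjusted p = 0.000278) and Ube2l6, its conjugating enzyme, at -0.59 ± 0.12 (adjusted p = 0.0053). These probe sets were rather dim, with means over the 9 arrays of 5.62, 6.13 and 5.83. The median of all genes was 6.45. Ifnar1, a subunit of the type I interferon receptor, went the other way with 1.35 ± 0.08 (adjusted p = 4.76e-06). Herc6, a ligase for Isg15 in the mouse, had 0.07 ± 0.31 (adjusted p = 0.902) and Stat2, a factor of interferon signaling, -0.07 ± 0.12 (adjusted p = 0.747).

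In the group of SMAD and Wnt signaling 1 enzyme was higher and 1 lower in P3 than in Fed, out of 4. Genes at a mean of at least 7 were higher in 34.1% and lower in 26.0%. Usp15, which binds the TGFβ receptor complex and receptor-activated SMADs, had 11.08, 10.91 and 11.03 in Fed, 10.56, 10.57 and 10.85 in P2 and 10.28, 10.48 and 10.36 in P3. Every P2 and P3 rat was below every Fed rat, and every P3 rat below every P2 rat. The change was -0.63 ± 0.10 in P3 versus Fed (adjusted p = 0.00114). The P2 versus Fed value of -0.34 ± 0.10 just missed the threshold (adjusted p = 0.0651), and without P2 3 it was -0.44 and was called (adjusted p = 0.0335, in a range of 0.0335 to 0.176).

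Usp4, a close relative of Usp15 and Usp11, had 10.12, 10.27 and 10.07 in Fed, 10.31, 10.15 and 10.36 in P2 and 10.28, 10.62 and 10.61 in P3. P3 1 lay beside the highest Fed rat, and the other P3 rats were the highest of all. The change of 0.35 ± 0.11 in P3 versus Fed was called (adjusted p = 0.0415), but not without Fed 1, Fed 3, P2 3, P3 2 or P3 3, with values between 0.29 and 0.46 over all arrays left out. Usp11 had 0.22 ± 0.12 and Usp9x, which acts on SMAD4, had -0.28 ± 0.11, and neither passed. Usp9x was called in P3 versus Fed without P2 1, at the same -0.28, with adjusted p = 0.0226 in a range of 0.0226 to 0.247.

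Usp2 was alone in its course. This enzyme, whose transcript follows the circadian clock in many tissues and which acts on clock proteins, had 9.05, 9.36 and 9.26 in Fed, 9.89, 10.15 and 9.74 in P2 and 9.22, 9.23 and 9.28 in P3. The P2 rats were above all others, and the P3 rats lay within the range of the Fed rats. It was 0.70 ± 0.12 higher in P2 than in Fed (adjusted p = 0.00639) and lower in P3 than in P2, at -0.68 ± 0.12 (adjusted p = 0.00346). The P3 versus Fed value was 0.02 ± 0.12 with a 95% interval of -0.24 to 0.28.

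Clock genes did not share one course. Of 10 measured, 4 were higher and 2 lower in P3 than in Fed, and 3 were higher in P2. Among genes at a mean of at least 7 it was 34.1%, 26.0% and 14.3%, and the differences were not tested. Per3, a period gene, had the course of Usp2, with 0.72 ± 0.15 in P2 versus Fed, 0.03 ± 0.15 for P3 versus Fed and -0.69 ± 0.15 in P3 versus P2. Per1 was higher in both phases, with 1.79 ± 0.21 in P2 and 2.51 ± 0.21 in P3, as was Per2, with 1.18 ± 0.12 in P2 and 1.0 ± 0.12 in P3. Bhlhe40, a repressor of the clock, was -1.82 ± 0.17 and Dbp, a clock output factor, -1.05 ± 0.27 in P3 versus Fed. By the study's methods, the rats of all groups were killed within the same late-morning window. Fed 1 still lay above Fed 2 and Fed 3 in Per3 (8.27 against 7.77 and 7.60) and Dbp (9.82 against 8.71 and 8.90). In Per2 it lay below them (6.33 against 6.54 and 6.68). The part of time of day in these values was not tested. Of 6 adipocyte markers 2, Adipoq and Cidec, were higher in P2 than in Fed and lower in P3 than in P2, and the summed level of the 6 on the log2 scale lay between 8.12 and 8.26 in Fed, between 8.69 and 9.50 in P2 and between 8.17 and 8.36 in P3. Their part in the Usp2 values was not tested.

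Usp53, a member of the USP family long held to be inactive and known from cell junctions, was the second most changed member in P3. It had 8.37, 8.18 and 7.57 in Fed, 8.46, 8.99 and 8.85 in P2 and 10.30, 9.95 and 10.14 in P3. Fed 3 was the lowest rat, every P2 rat lay above every Fed rat, and the P3 rats were far above both. The change was 2.09 ± 0.21 in P3 versus Fed (adjusted p = 7.97e-05) and 1.36 ± 0.21 in P3 versus P2 (adjusted p = 0.00223). The P2 versus Fed value of 0.73 ± 0.21 was as large as that of Usp2 but not called (adjusted p = 0.0677, 95% interval 0.25 to 1.21), in a range of 0.0392, without P2 1, to 0.185 over the arrays left out.

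Usp39, an inactive family member of the spliceosome, had 8.63, 8.54 and 8.57 in Fed, 8.56, 8.46 and 8.68 in P2 and 8.80, 9.21 and 9.17 in P3. P3 was above both other groups, by 0.48 ± 0.11 versus Fed (adjusted p = 0.0116) and 0.49 ± 0.11 versus P2 (adjusted p = 0.0179). Usp40 had 8.42, 8.26 and 8.13 in Fed, 8.13, 8.71 and 8.61 in P2 and 8.77, 8.53 and 8.55 in P3. P2 1 again lay with the lowest Fed rat, and no comparison of Usp40 passed. Usp54, the relative of Usp53, had 0.43 ± 0.15 in P2 and 0.19 ± 0.15 in P3 and passed in neither.

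Some of the calls between the phases were lost when 1 array was left out. In P3 versus P2 14 of 19 were called whichever array was left out. The others were Atxn3, lost without P3 1 or P3 3, Usp1, lost without P3 2, Usp7, lost without any of the P3 rats, Usp39, lost without P2 2, P3 2 or P3 3, and Usp10. Over the arrays left out, the P3 versus P2 change ranged from 0.27 to 0.41 for Atxn3, 0.51 to 0.82 for Usp1, 0.27 to 0.40 for Usp7 and 0.42 to 0.62 for Usp39.

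By family, 16 of 33 USP genes were higher and 2 lower in P3 than in Fed, against 1 of 4 UCH genes higher and 2 of 4 OTU genes higher, with both single members of the Josephin and JAMM families higher. Genes at a mean of at least 7 were higher in 34.1% and lower in 26.0%, and differences between families were not tested. A further 41 genes of deubiquitinating enzymes and related proteins, among them Cops5 and Eif3h, were listed beside the 50. Of these 20 were measured, of which 6 were higher and 1 was lower in P3 than in Fed and 3 were higher in P2. That is 35% called in P3, against 29.2% of all probe sets and 60.1% of the genes at a mean of at least 7. In P2 it was 15%, against 9.28% and 23.5%. Several of the 20 lay below a mean of 7, among them Usp26 (3.79), Usp29 (4.3) and Usp44 (4.84). The share among genes at a mean of at least 7 is therefore not a like comparison for this list. The median of the 20 in P3 versus Fed was 0.25. The changes of the most changed in P3 versus Fed were 2.74 ± 0.10 for Mindy1, which trims Lys48-linked chains (adjusted p = 3.36e-07), -1.74 ± 0.15 for Otub2 (adjusted p = 2.95e-05) and 1.53 ± 0.15 for Otulin, which cuts linear chains (adjusted p = 5.76e-05). The mean level of Mindy1 was 7.04 in Fed rats, 7.79 in P2 rats and 9.77 in P3 rats, and that of Otub2 was 7.14 in Fed rats, 6.68 in P2 rats and 5.41 in P3 rats.

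Of 19 measured proteins that bind the enzymes, out of 27 listed, 13 were higher and 1 was lower in P3 than in Fed, with a median of 0.87. That is 73.7% called, against 60.1% of the genes at a mean of at least 7. In P2 9 were higher than in Fed and 0 lower, 47.4% called against 23.5%, with a median of 0.39. In P3 versus P2 12 were higher and 0 lower, 63.2% against 41.8%. These differences in share were not tested. The largest changes in P3 versus Fed were those of Hgs, Foxk1, Nploc4 and Nsfl1c, given above. The 5 partners not called in P3 versus Fed were Hcfc1, Wdr20, Gmps, Eny2 and Spata2.

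**Figure D4:**
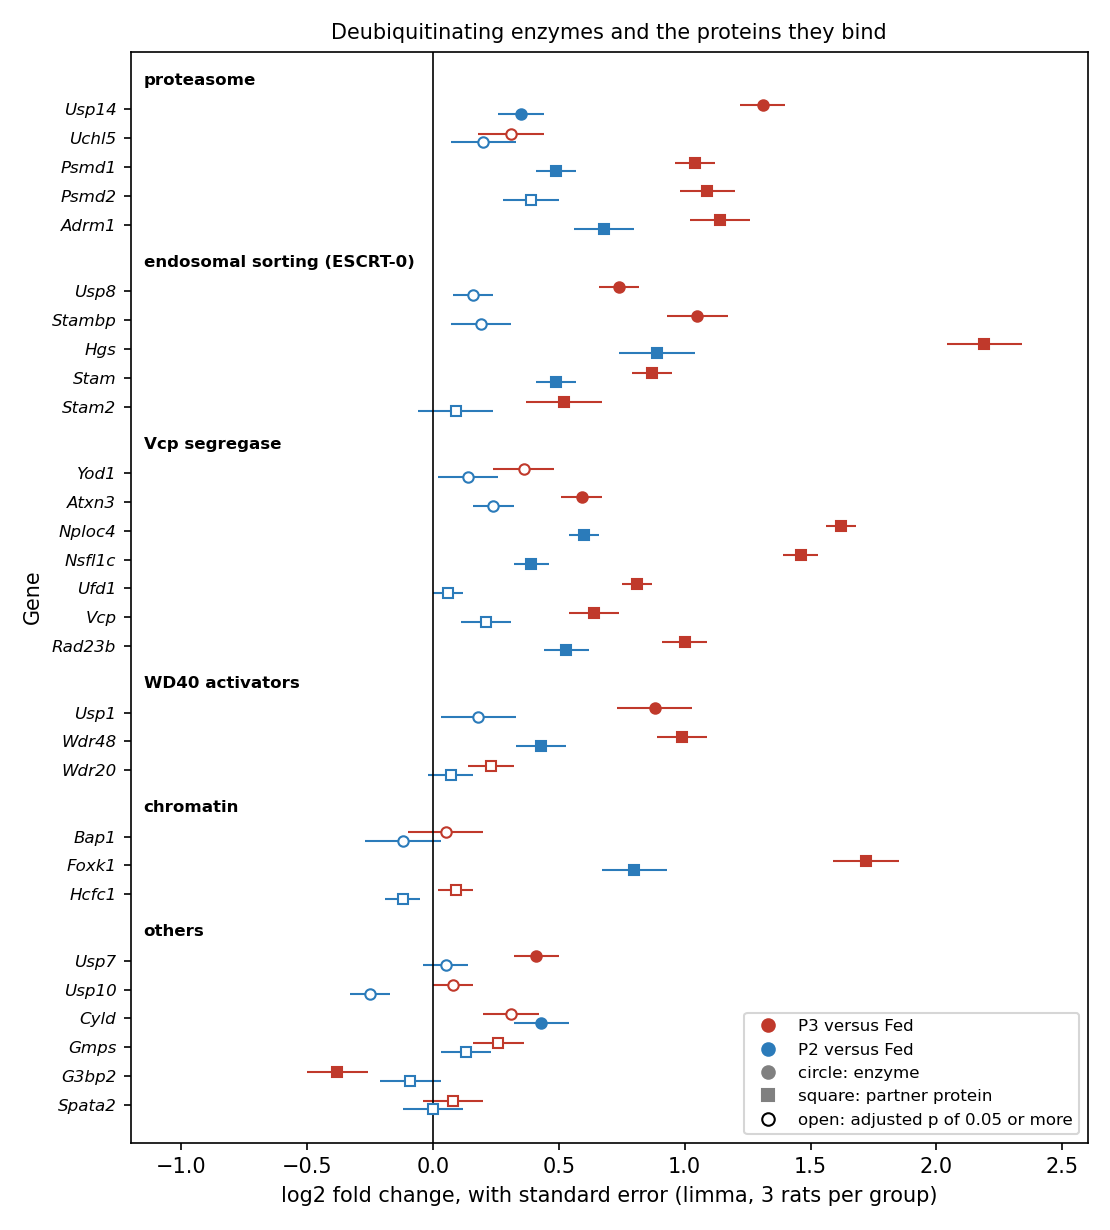
Log2 fold changes of deubiquitinating enzymes (circles) and the proteins they bind (squares) in P3 versus Fed (red) and P2 versus Fed (blue), grouped by complex, with bars for the standard error from limma (3 rats per group). Filled symbols are called. At the endosome Hgs (2.19) lies right of Stambp (1.05) and Usp8 (0.74), and of the partners only G3bp2 (-0.38) is called to the left in P3.

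The 7 members without a probe set of their own, which were not analysed here, were Usp38, Usp34, Usp22, Usp36, Usp37, Usp12 and Usp46. The probe sets of 17 members were called in no comparison: Uchl5, Uchl3, Usp19, Yod1, Usp30, Usp32, Usp9x, Usp11, Usp21, Bap1, Usp24, Usp28, Usp47, Usp48, Otub1, Usp40 and Usp54. Their log2 fold changes in P3 versus Fed lay between -0.28 and 0.36. A missed threshold does not show that these transcripts were at the same level in all groups.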

How the data were processed

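Total RNA of TIB from 9 rats, 3 each in Fed, P2 and P3, was hybridized to 1 array per rat. The authors made the deposited log2 intensities by RMA in Affymetrix Expression Console 1.1. The arrays were quantile-normalized on a sketch and each probe set was summarized by median polish, so that the values are already scaled to a common distribution. They were used as deposited. An RMA value gives no count or depth, and the number of arrays limits the precision.

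The platform annotation gave 1 symbol to 15310 of 29215 probe sets, several to 323 and none to 13582. Group means were fitted with limma 3.58.1 in R 4.3.3 (lmFit and eBayes, 2.87 prior degrees of freedom), all 9 arrays sharing 1 estimate of the spread. P-values were adjusted by the Benjamini-Hochberg method over all probe sets in each of 3 comparisons. The scripts were tested on simulated data. Promoters are from RefSeq (GRCr8), where 36 of the 43 measured members matched. The plots were made in matplotlib 3.10.9 (Python 3.11.15).

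The enzymes, the role groups, the other gene lists and the tests were chosen with earlier results of these data known. Values in every rat are given for members called with a log2 fold change of at least 0.8 in either direction, and for up to 2 further members of each role group with the largest change in P3 versus Fed. For the other lists up to 4 genes with the largest change are named, and the direct partners of members. Per3, Psmd1, Psmd2, Stam, Stam2, Vcp, G3bp2 and Hcfc1 were chosen after their values were seen. So were the further list genes of a count, the markers named and the comparison with genes at a mean of at least 7. The study's test, a one-way ANOVA with a Tukey test, was run as an alternative. The labels do not say whether rats with the same replicate number shared a batch. The soleus and heart muscles, the protein assays and the blots of the study are not analysed here.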

Additional observations from a re-analysis of the deposited data

Results flagged for a closer look

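In 3 enzymes the P2 and P3 means lay on opposite sides of the Fed mean. The difference between the phases was itself called by limma with Benjamini-Hochberg adjustment. For Usp5, which takes apart free ubiquitin chains, P3 was 0.65 above P2 (adjusted p = 0.00146), and against Fed P3 was at 0.43 and P2 at -0.22. All 3 P3 rats were above and all 3 P2 rats below the Fed rats. For Usp39, of the spliceosome, P3 was 0.49 above P2 (adjusted p = 0.0179), and against Fed P3 was at 0.48 and P2 at -0.01. For Usp10, a partner of the stress granule proteins, P3 was 0.33 above P2 (adjusted p = 0.0239), and against Fed P3 was at 0.08 and P2 at -0.25. The P2 versus Fed values of all 3 enzymes missed the threshold, as did the P3 versus Fed value of Usp10 (adjusted p = 0.516). The P2 and Fed rats overlapped for Usp39, and the P3 and Fed rats for Usp10, so a side of Fed is not shown there.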

How the results depend on the processing

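The number of enzymes higher in P2 than in Fed, 8 in the fit reported, was 11 with array weights, 9 with a mean log2 of at least 5 and over probe sets with 1 symbol, 5 with the 2 groups compared alone, 3 at an adjusted p under 0.01, 2 with a change of at least 1.5-fold, and, with the study's test, 1 for ANOVA and Tukey at p under 0.001 and 2 with Benjamini-Hochberg adjustment of the Tukey p. The count lower in P2 was 1 in place of 0 with quantile normalization once more (Usp15), over probe sets with 1 symbol (Usp15) and with array weights (Usp10). In P3 versus Fed the count higher was 13 in place of 21 with ANOVA and Tukey, and the count lower 1 in place of 2 with a mean log2 of at least 5, an adjusted p under 0.01 and the adjusted Tukey p, and 0 with ANOVA and Tukey. In P3 versus P2 the count higher was 6 in place of 18 with ANOVA and Tukey, and the count lower 2 in place of 1 with quantile normalization once more and with array weights, and 0 with ANOVA and Tukey. The stricter thresholds lower counts by construction. The filter on a mean log2 of at least 5 takes out Usp18 (mean 3.92), which was lower in P3 than in Fed, and leaves 42 members. For the other changes in count the cause was not tested.

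Leaving out each array in turn gave 3 to 12 enzymes higher and 0 to 1 lower in P2 than in Fed, 20 to 25 higher and 1 to 3 lower in P3 than in Fed, and 14 to 18 higher and 1 to 1 lower in P3 versus P2. The count higher in P2 versus Fed was 12 without P2 1, 5 without Fed 1 or P3 3, 4 without Fed 2, Fed 3 or P2 2, and 3 without P2 3. The count lower in P3 versus Fed was 1 without Fed 2, Fed 3 or P3 2.

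Deviations from the group means correlated between -0.243 and 0.123 across same-numbered rats. With 3 rats per group this does not exclude a batch shared by rats of the same number. With the number as a block, 5 were higher and 0 lower in P2 than in Fed, 20 higher and 2 lower in P3 than in Fed, and 17 higher and 1 lower in P3 than in P2. No value that was called changed sign under any of the 22 settings.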
